A study of Mus musculus with 8 samples.

Results

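The genes described are the nuclear genes for subunits of the mitochondrial respiratory chain, measured in the cortex of mouse embryos that carry Mboat7-/- or Mboat7+/-. They were chosen by symbol alone: the Ndufa, Ndufb, Ndufc, Ndufs, Ndufv, Uqcr, Cox4i, Cox5, Cox6, Cox7 and Cox8 families, the Sdha, Sdhb, Sdhc and Sdhd genes and Cyc1, without pseudogene names and without the assembly factors named Ndufaf. The choice left 69 of the 22820 genes listed in both count tables, of which 36 belong to complex I, 4 to complex II, 9 to complex III and 20 to complex IV. Ndufa4 and Ndufa4l2, whose names place them in complex I, were counted with complex IV, since the Ndufa4 protein is now known as a subunit of cytochrome c oxidase. A further 4 genes that fit the symbols, Cox6c2, Ndufa11b, Ndufb4c and Ndufs6b, were listed in the E12.5 table only and were not analysed here.

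Mboat7 encodes the acyltransferase that places arachidonic acid on lysophosphatidylinositol. RNA was taken from whole cortices at E11.5 and E12.5 (days of embryonic development), 8 cortices altogether, with 2 Mboat7+/- and 2 Mboat7-/- at each stage. The Mboat7-/- embryos lack a functional gene in every cell of the body, the controls carry a single functional copy, no wild-type cortex was included, and the line was kept on a C57BL/6N background. Poly(A)-selected RNA was sequenced as directional libraries, and the 2 stages were sequenced by different providers and counted on different annotations, so stage and provider cannot be told apart and levels are compared only within a stage.

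The respiratory chain passes electrons from NADH and succinate to oxygen and pumps protons across the inner mitochondrial membrane, which ATP synthase then uses to make ATP. Complex I (NADH dehydrogenase) takes electrons from NADH, complex II (succinate dehydrogenase) takes them from succinate in the citric acid cycle, complex III (cytochrome bc1) hands them to cytochrome c, and complex IV (cytochrome c oxidase) delivers them to oxygen. Complexes I, III and IV also hold a few subunits encoded by mitochondrial DNA, while complex II is wholly nuclear. Early cortical progenitors rely strongly on glycolysis, and mitochondrial respiration gains weight as neurons form. Transcription of the nuclear subunit genes is known to depend on the factors NRF1, GABP (also called NRF-2), YY1 and the estrogen-related receptors, with their co-activators of the PGC-1 family.

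The promoters of several members carry the letters that NRF1 or GABP is known to prefer, and 5 of them are shown because each holds a whole motif outside every annotated exon. A promoter was found in RefSeq (build GRCm38.p6) for 54 of the 69 genes, and the 250 bases before the start were searched on both strands for GCGCATGC (NRF1), CCGGAAG (GABP), AAGATGGC (YY1) and TCAAGGTCA (estrogen-related receptors). In capitals are the motif letters, GCGCATGC or its complement in the first pair and CCGGAAG or its complement in the rest, and each line reads 5′ to 3′ on the strand of the gene. They come from an NADH dehydrogenase subunit at chr17:56717686-56717761 (plus strand), another at chr15:82354323-82354441 (minus strand), a succinate dehydrogenase anchor at chr9:50603850-50603909 (minus strand), and small subunits of complex III at chr10:80406831-80406971 and chr4:116075072-116075220 (both minus strand).
Ndufa11: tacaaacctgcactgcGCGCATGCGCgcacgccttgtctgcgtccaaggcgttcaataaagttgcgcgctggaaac
Ndufa6: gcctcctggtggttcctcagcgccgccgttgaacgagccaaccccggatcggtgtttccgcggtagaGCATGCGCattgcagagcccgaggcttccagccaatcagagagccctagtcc
Sdhd: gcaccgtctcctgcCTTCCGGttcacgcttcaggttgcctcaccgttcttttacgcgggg
Uqcr11: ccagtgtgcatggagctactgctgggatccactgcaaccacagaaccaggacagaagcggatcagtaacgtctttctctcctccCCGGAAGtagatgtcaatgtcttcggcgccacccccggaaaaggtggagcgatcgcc
Uqcrh: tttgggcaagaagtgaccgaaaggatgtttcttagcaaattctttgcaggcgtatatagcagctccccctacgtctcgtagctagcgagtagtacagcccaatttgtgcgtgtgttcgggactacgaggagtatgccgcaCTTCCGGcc

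In the Ndufa11 line the NRF1 letters overlap on both strands, so the capitals run over the pair. The NRF1 letters were found before the start of 5 of the 54 members (9.26%), against 2.56% of 27025 genes with a promoter in the same table. The GABP letters were found in 8 of 54 (14.8%), against 7.83% of all. The YY1 letters were found before the start of 0 members (1.83% of all genes), but in 7 of 54 once the first 50 bases after the start were added, against 3.19% of all. In that longer window of 300 bases the NRF1 letters were found in 7 members (3.05% of all genes) and the GABP letters in 11 (9.93%). The estrogen-related receptor letters were found in 0 members before the start and in 1 in the longer window, against 0.422% and 0.466% of all genes. These are matches of letters in a short window, and nothing on binding was measured. The shares of all genes cover every gene with a promoter, not matched to the members for expression or base composition. At E11.5 the median log2 fold change was -0.25 over the 5 members with the NRF1 letters and -0.18 over the 46 tested members without them. For the GABP letters it was -0.21 over 8 members with them and -0.18 over 43 without. Neither split was tested or set against transcript length.

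Each cortex gave between 20799311 and 28189771 counted reads, and a count of 3, taken as the floor of detection, corresponds to between 0.106 and 0.144 CPM (counts scaled to a common library size), counting error only. Levels are given as CPM on library sizes normalized by the TMM method, and a log2 fold change is that of Mboat7-/- over Mboat7+/- fitted by edgeR, with its standard error (SE). Markers of the dorsal forebrain (Emx1, Emx2, Pax6, Lhx2 and Sox2) were present in every cortex, with a summed level of 957 to 1237 CPM. Mboat7 itself stood at 32.3 and 33.1 CPM in the Mboat7+/- cortices of E11.5 and at 39.0 and 34.8 in the Mboat7-/- cortices, and at 35.5 and 36.2 against 31.7 and 32.2 at E12.5. Its fitted log2 fold change was 0.17 at E11.5 (adjusted p = 0.527) and -0.17 at E12.5 (adjusted p = 0.958), so the Mboat7-/- libraries lay above the controls at E11.5 and below them at E12.5, and by small margins. Its gene-level count is therefore no check of the genotype labels, on which every direction below rests. Whether the counted exons lie outside the deleted part was not tested. Xist, transcribed from the inactive X chromosome of females, stood at 825.5 CPM in Mboat7+/- replicate 1 of E11.5 and at or under 0.0884 in the other 7 cortices, so the E11.5 groups differ in sex. Labels name the replicates as biological, and p-values measure the spread between 2 cortices of a group.

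Per kilobase of transcript, which allows levels to be compared between genes, the tested members had a median of 62.9 CPM in complex I, 79.9 in complex II, 112.5 in complex III and 148.7 in complex IV at E11.5, and of 69.7, 76.5, 94.7 and 151.1 at E12.5. The members of highest level per kilobase were Cox4i1, Cox6a1 and Cox8a of complex IV at E11.5 (402.8, 271.5 and 261.0) and Cox4i1, Cox6a1 and Cox6b1 at E12.5 (419.3, 262.1 and 232.0). Within complex I the range at E11.5 was wide, from 5.50 CPM per kilobase for Ndufb2, whose principal transcript in the annotation is 4371 bases long, to 152.0 for Ndufb8, and at E12.5 it ran from 7.36 for Ndufb2 to 139.3 for Ndufc2.

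At E11.5 the respiratory chain genes as a body stood lower in the libraries labelled Mboat7-/-, and no single gene passed the test across all genes. The 69 genes summed to 5810 and 6059 CPM in the Mboat7+/- cortices and to 5295 and 5344 CPM in the Mboat7-/- cortices. Both Mboat7-/- sums lay below both Mboat7+/- sums, and their mean was 89.6% of the Mboat7+/- mean. By complex, the Mboat7-/- mean was 89.3% for complex I, 95.6% for complex II, 90.4% for complex III and 87.6% for complex IV, and in each complex both Mboat7-/- cortices lay below both Mboat7+/- cortices. In whole tissue, fewer cells that express these genes and less RNA per cell cannot be told apart.

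**Figure D1:**
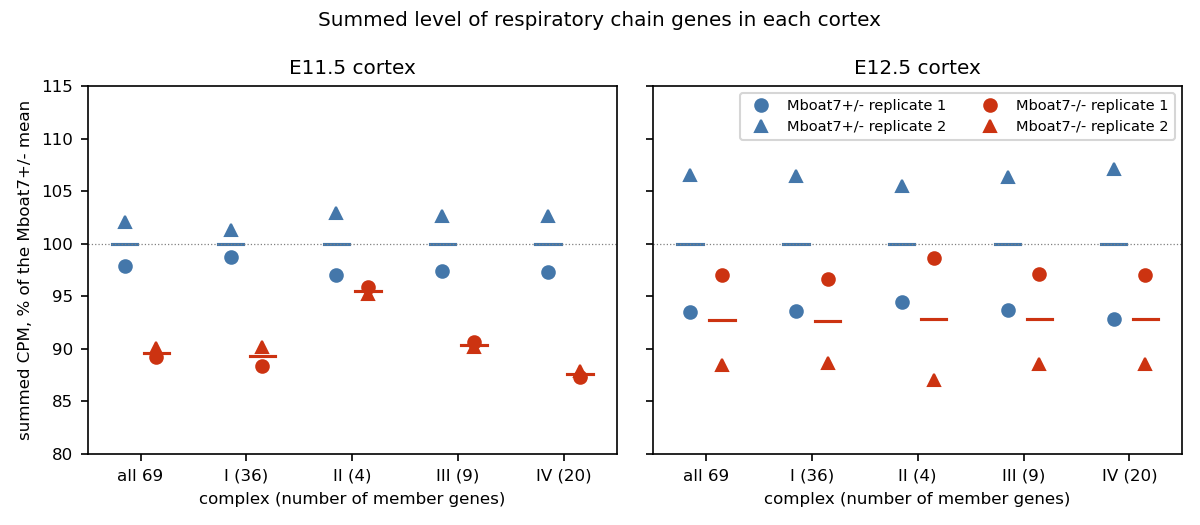
Summed CPM of the member genes of each complex (x axis) in each cortex, as a percentage of the Mboat7+/- mean of that stage (y axis, which does not start at 0), with circles for replicate 1, triangles for replicate 2 and short lines for the mean of 2 cortices. At E11.5 the Mboat7-/- cortices lie below the Mboat7+/- cortices in every complex, and at E12.5 Mboat7-/- replicate 1 lies above Mboat7+/- replicate 1.

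Of the 64 members that passed the filter on low counts at E11.5, 62 had a fitted log2 fold change under 0, against 51.0% of the 14935 genes tested. The median over these members was -0.18, a level 11.8% lower, with values from -0.83 to 0.11, while the median over all genes tested was -0.01. In 50 of the 64, both Mboat7-/- cortices lay below both Mboat7+/- cortices, against 23.3% of all genes, and in 2, Ndufs1 and Sdha, both lay above, against 23.1%. An unadjusted p under 0.05 was reached by 30 members, all lower (5.81% of all genes were lower at that level), and by none that were higher (7.94%). With the edgeR quasi-likelihood test and Benjamini-Hochberg adjustment over all genes, 0 members and 0% of all genes had an FDR under 0.05, and the smallest adjusted p of a member was 0.190, that of Cox6a1. DESeq2 called 1 member and 168 genes at that FDR. The 5 members not tested were Cox6a2, Cox7b2, Cox8b, Cox8c and Ndufs5.

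**Figure D2:**
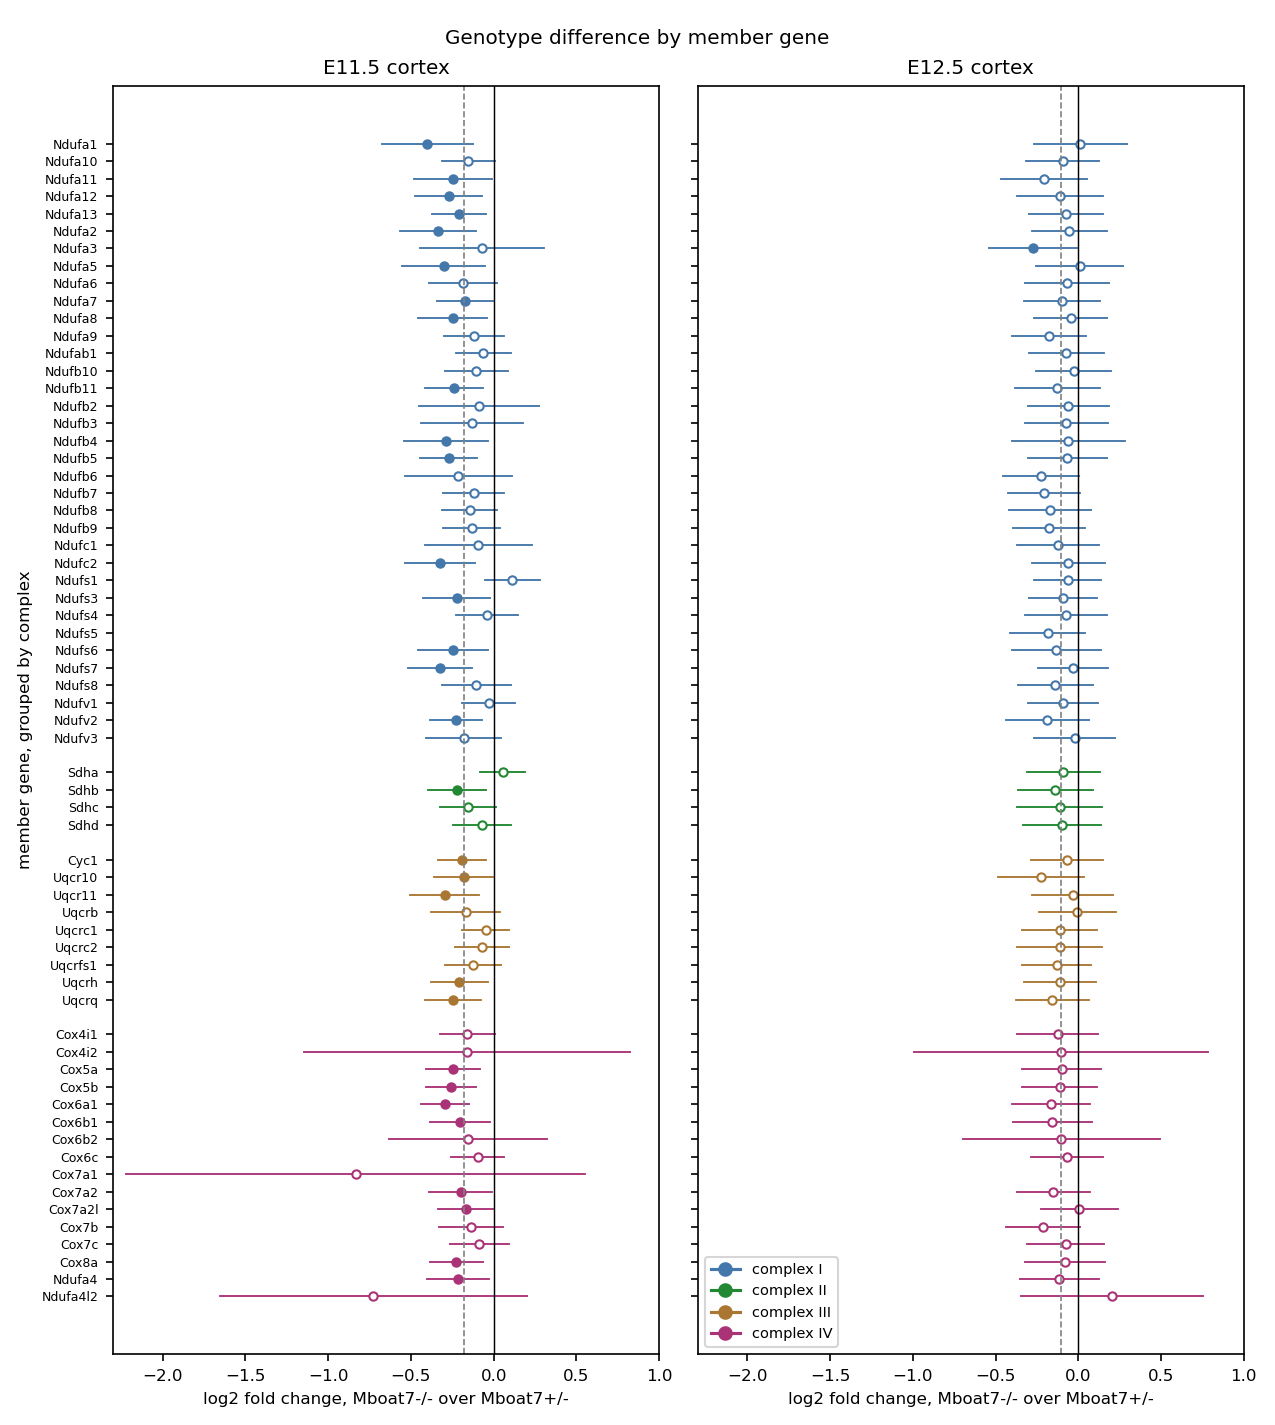
Fitted log2 fold change of the tested members shown (x axis) at E11.5 and E12.5, grouped by complex (y axis), with 95% confidence intervals as bars, filled points for an unadjusted p under 0.05 and a dashed line at the members' median, -0.18 at E11.5 and -0.10 at E12.5. At E11.5, 30 points are filled and all but Ndufs1 and Sdha lie left of 0, and at E12.5 a single point, Ndufa3, is filled.

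In complex I, 34 of the 35 tested genes had a fold change under 0 at E11.5, with a median of -0.18, and 16 reached an unadjusted p under 0.05. The shares of all genes, for this and the other complexes, were 51.0% under 0, 23.3% below without overlap and 5.81% lower at that p. The core of the complex, the subunits that bind flavin and iron-sulfur clusters and carry the electrons, comprises 7 nuclear genes, of which 6 were lower and 5 did not overlap between genotypes, with a median of -0.11. Ndufs7, the core subunit next to the ubiquinone site, measured 62.4 and 59.5 CPM in Mboat7+/- and 49.6 and 47.9 in Mboat7-/- cortices. Both Mboat7-/- cortices were below the controls, with a log2 fold change of -0.32 (SE 0.0844, adjusted p = 0.204). Ndufv2, a core iron-sulfur subunit of the NADH-oxidizing arm, measured 117.8 and 112.7 CPM against 99.9 and 96.9, a log2 fold change of -0.23. Ndufs1, which carries several of the iron-sulfur clusters, went the other way, with 84.0 and 88.3 CPM against 94.7 and 91.7 (log2 fold change 0.11, adjusted p = 0.533).

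The accessory subunits of complex I surround that core and serve its assembly and stability. Of the Ndufb and Ndufc genes, whose proteins lie in the membrane arm, all 12 were lower, with a median of -0.14, and 4 reached an unadjusted p under 0.05. Ndufb5 measured 76.9 and 75.4 CPM in Mboat7+/- and 61.7 and 64.4 in Mboat7-/- cortices (log2 fold change -0.27, adjusted p = 0.217). Ndufc2 measured 64.0 and 57.8 CPM against 49.9 and 47.3 (log2 fold change -0.32, adjusted p = 0.219). Neither gene overlapped between the genotypes, although 4 of the 12 did.

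Of the other accessory genes of complex I, all 16 tested were lower, with a median of -0.20, and 9 reached an unadjusted p under 0.05. Ndufa2, an accessory subunit of the matrix arm, measured 62.5 and 73.5 CPM against 51.9 and 56.0, a log2 fold change of -0.34 (adjusted p = 0.228). Ndufa1, an X-linked subunit of the membrane arm, measured 29.1 and 30.2 CPM against 22.7 and 22.2, a log2 fold change of -0.40 (adjusted p = 0.230). In the other X-linked genes, Ndufb11 measured 86.9 and 94.1 CPM against 77.0 and 76.2, and Cox7b of complex IV 81.0 and 91.6 against 80.4 and 76.6. In all 3 the control without Xist was the higher of the Mboat7+/- pair. Ndufs5 was listed at 0 in all 4 cortices of E11.5 but at 44.5, 50.1, 41.6 and 41.8 CPM at E12.5, and the cause of the zeros was not tested.

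The 4 genes of complex II differed in direction. Sdhb, the iron-sulfur subunit, measured 123.4 and 131.8 CPM in Mboat7+/- and 105.0 and 113.9 in Mboat7-/- cortices, without overlap (log2 fold change -0.22, adjusted p = 0.270). Sdha, the flavoprotein that oxidizes succinate, measured 242.3 and 249.0 CPM against 258.3 and 252.1, so that both Mboat7-/- cortices were above both controls by a small margin (log2 fold change 0.06, adjusted p = 0.723). The membrane anchors lay between these, with a log2 fold change of -0.15 for Sdhc (127.7 and 141.1 CPM against 121.9 and 119.5) and of -0.07 for Sdhd, whose genotypes overlapped (89.4 and 96.1 against 90.5 and 86.0). Sdhb alone of these reached an unadjusted p under 0.05.

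In complex III all 9 genes were lower, with a median of -0.18, and 5 reached an unadjusted p under 0.05. Cyc1, the cytochrome c1 that passes electrons to cytochrome c, measured 181.1 and 187.2 CPM in Mboat7+/- and 159.5 and 163.1 in Mboat7-/- cortices (log2 fold change -0.19, adjusted p = 0.256). Uqcrfs1, the Rieske iron-sulfur protein, had a log2 fold change of -0.12. The 5 small subunits Uqcrb, Uqcrq, Uqcrh, Uqcr10 and Uqcr11 were below the controls without overlap, at a median of -0.21. Among them, Uqcrq measured 83.2 and 84.7 CPM against 69.1 and 72.5 (log2 fold change -0.25, adjusted p = 0.231), and Uqcr11, whose promoter is printed above, 52.8 and 57.5 against 45.2 and 44.7 (log2 fold change -0.29). The large core proteins differed least, with Uqcrc1, the complex III gene of highest CPM, at 205.3 and 207.5 CPM against 203.4 and 195.7 (log2 fold change -0.05) and Uqcrc2 at a log2 fold change of -0.07.

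In complex IV all 16 tested genes were lower, with a median of -0.20, and 8 reached an unadjusted p under 0.05. The nuclear subunits of this complex surround the catalytic core, which is encoded by mitochondrial DNA. Cox6a1, which had the smallest p of all members, measured 173.6 and 168.2 CPM in Mboat7+/- and 138.9 and 139.5 in Mboat7-/- cortices. The gap between the groups was several times the spread within them, with a log2 fold change of -0.30 (SE 0.0637, adjusted p = 0.190). Cox5b, a zinc-binding subunit on the matrix side, measured 130.1 and 129.3 CPM against 107.0 and 109.7 (log2 fold change -0.26, adjusted p = 0.198). Cox5a measured 108.1 and 115.6 CPM against 95.0 and 93.7 (log2 fold change -0.25, adjusted p = 0.224). Cox4i1, the gene of highest CPM of all members and the subunit where ATP is known to act on the enzyme, measured 303.8 and 346.4 CPM against 292.8 and 289.5, with a log2 fold change of -0.16 (adjusted p = 0.387). Ndufa4 measured 112.6 and 124.1 CPM against 107.1 and 96.9, a log2 fold change of -0.21.

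The counts at E11.5 depended on single cortices. Without Mboat7-/- replicate 2, which left Mboat7-/- replicate 1 alone and assumed to vary as the others do, 8 members had an FDR under 0.05, all lower, against 3.72% of 15333 genes. They were Ndufa12, Cox5b, Sdhb, Cox6b1, Ndufa2, Cox8a, Cox6a1 and Ndufb5, with adjusted p from 0.0183 to 0.0497 (edgeR). Of those not yet described, Ndufa12, an accessory subunit of the matrix arm, measured 76.8 and 73.8 CPM in Mboat7+/- and 58.1 and 66.6 in Mboat7-/- cortices. Cox6b1, which faces the intermembrane space, measured 153.7 and 157.5 CPM against 126.4 and 144.3, and Cox8a, a single-pass membrane subunit, 152.7 and 156.9 against 127.0 and 137.7. In each, Mboat7-/- replicate 1 was the lower of the pair. Without Mboat7+/- replicate 2, 6 members reached an unadjusted p under 0.05, all lower (2.01% of all genes), and without Mboat7+/- replicate 1, the cortex with Xist, 19 did, again all lower (2.72%). Without Mboat7-/- replicate 1 there were 23 (5.65%) and without Mboat7-/- replicate 2 there were 28 (10.1%), none of them higher. The median stayed between -0.22 and -0.15 when each cortex was left out. With the replicate number as a block, which the labels also give as a batch, Cox6a1 had an adjusted p of 0.0384 at a log2 fold change of -0.30, and no other member had an FDR under 0.05.

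The members are short, and at E11.5 short transcripts as a class stood lower in the Mboat7-/- libraries. The median length of the principal transcript was 870 bases over the tested members and 3011 over all genes tested, and 57.8% of the members were under 1000 bases, against 6.29% of all. Over the genes that are not members, the median log2 fold change was -0.17 for transcripts of 500 to 750 bases, -0.12 for 1000 to 1500, -0.04 for 2000 to 3000 and 0.14 for 5000 or more. The members measured -0.19 (24 genes) in the bin of 500 to 750 bases and -0.15 (12 genes) in that of 1000 to 1500. In the bin of 750 to 1000 bases they measured -0.26 (9 genes) against -0.16 for the other genes, and under 500 bases -0.35 (4 genes) against -0.16. Of the 6 members of 2000 bases or more, Sdha and Ndufs1 lay above the controls and 4 were lower in the fit. The 3 members at 3000 to 5000 bases, Ndufb2, Ndufab1 and Sdhc, had a median of -0.09 against 0.03 for the other genes. Each length is that of 1 annotated transcript per gene, and which transcripts these cortices used was not tested.

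**Figure D3:**
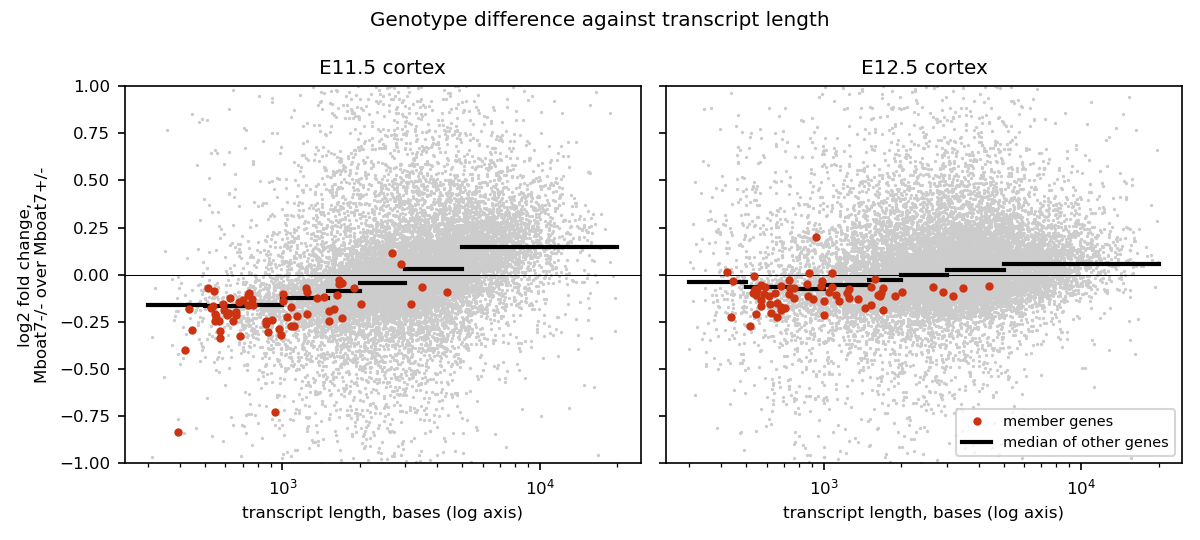
Fitted log2 fold change (y axis, limited to -1 to 1) against the length of the principal transcript (x axis, log scale) for all genes tested (grey), the members (red) and the median of the other genes in each length bin (black lines). At E11.5 the black line climbs from -0.17 at 500 to 750 bases to 0.14 at 5000 bases or more, and most red points lie at short lengths near or below it.

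With a smooth trend on transcript length and GC content removed from every library, the median log2 fold change of the members at E11.5 moved from -0.18 to -0.05. Then 46 of 64 members were under 0, against 51.4% of all genes, and 1 member, Ndufv2 (log2 fold change -0.20, adjusted p = 0.600), was lower at an unadjusted p under 0.05, against 3.62%. By complex the medians became -0.05 (I), -0.02 (II), -0.05 (III) and -0.04 (IV). The fold changes of 16 members turned from negative to positive in that fit, among them those of Cox4i1 (0.03), Uqcrc1 (0.07) and Sdhd (0.03). Whether the trend with length comes from RNA quality, library preparation or the tissue was not tested.

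At E12.5 the members were again mostly lower in the fit, but the groups overlapped. The 69 genes summed to 5400 and 6151 CPM in the Mboat7+/- cortices and to 5606 and 5110 CPM in the Mboat7-/- cortices. Mboat7-/- replicate 1 was thus higher than Mboat7+/- replicate 1, and the Mboat7-/- mean was 92.7% of the controls in complex I, 92.9% in complex II, 92.9% in complex III and 92.8% in complex IV, as the plot of summed levels shows. Of 64 members tested, 60 had a fold change under 0, against 48.8% of the 16326 genes tested, with a median of -0.10 and values from -0.27 to 0.20. Both Mboat7-/- cortices lay below both controls in 14 members (15.2% of all genes) and above them in 1, Ndufa4l2 (16.9%). The share of members below, 21.9%, was near the background. A single member, Ndufa3, was lower at an unadjusted p under 0.05 (1.35% of all genes), and none was higher (2.76%). No member had an FDR under 0.05, which 0.0184% of all genes had, and the smallest adjusted p of a member was 0.958. DESeq2 called 0 members and 10 genes at that FDR. The 5 members not tested at this stage were Cox6a2, Cox7a1, Cox7b2, Cox8b and Cox8c.

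Ndufa3, a small subunit of the membrane arm of complex I, measured 43.4 and 48.9 CPM in Mboat7+/- and 42.0 and 34.4 in Mboat7-/- cortices at E12.5 (log2 fold change -0.27, SE 0.120, adjusted p = 0.958). Ndufb6, of the same arm, measured 46.0 and 52.5 CPM against 42.5 and 41.8 (log2 fold change -0.22). Ndufb7 and Ndufb9 had log2 fold changes of -0.20 and -0.18 without overlap. These genes were higher in Mboat7+/- replicate 2 than in any other cortex, as were the sums of all 4 complexes. In complex IV, Cox7b measured 79.5 and 90.1 CPM against 76.4 and 69.8 (log2 fold change -0.21), and was the only one of its 15 tested genes below without overlap. In complex III, Uqcr10 measured 39.4 and 48.1 CPM against 38.9 and 36.1 (log2 fold change -0.22).

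Of the 10 members with the smallest p at E11.5, 9 overlapped between genotypes at E12.5, and Uqcrq did not. Cox6a1 measured 148.8 and 167.6 CPM in Mboat7+/- and 151.3 and 131.0 in Mboat7-/- cortices (log2 fold change -0.17). Ndufs7 measured 45.1 and 46.4 CPM against 45.6 and 43.8 (log2 fold change -0.03). Ndufa1 measured 31.6 and 39.6 CPM against 38.2 and 33.6 (log2 fold change 0.01). All 4 genes of complex II were lower in the fit, from -0.14 for Sdhb to -0.09 for Sdha, and all 4 overlapped.

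The values at E12.5 turned on Mboat7+/- replicate 2. Without it, the median of the members was -0.0038 and 33 of 65 were under 0, against 48.7% of all genes, and without Mboat7+/- replicate 1 it was -0.20 and 64 of 65 were under 0, against 47.7%. At an unadjusted p under 0.05, 7 members were lower without Mboat7+/- replicate 1 (2.06% of all genes) and 7 without Mboat7-/- replicate 1 (4.18%). Without Mboat7+/- replicate 2 or Mboat7-/- replicate 2, 0 members were lower or higher at that level, against 1.88% and 2.81% of all genes in either direction. The trend with transcript length was shallower than at E11.5, from a median of -0.06 at 500 to 750 bases to 0.06 at 5000 or more over the other genes. With that trend removed, the members' median was -0.04 and 47 of 64 were under 0 (49.1% of all genes), and 1, Cox7b, was lower at an unadjusted p under 0.05 (1.53%).

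The genotype difference was also compared between the stages over all 8 cortices, to ask whether it changed from E11.5 to E12.5. Of 65 members tested, 0 had an interaction FDR under 0.05, as had 0% of 14989 genes (0 members and 19 genes with DESeq2), and the median difference, E12.5 minus E11.5, was 0.06. At an unadjusted p under 0.05, 2 members (3.08%), Ndufs7 and Ndufa1, had a difference that was higher at E12.5. This share was near the 2.77% of all genes, and both were among the 10 members of smallest p at E11.5. The log2 difference was 0.29 for Ndufs7 (95% confidence interval 0.0262 to 0.558, adjusted p = 0.858) and 0.42 for Ndufa1 (0.0314 to 0.804, adjusted p = 0.858). Ndufs5, at 0 throughout E11.5, gives no usable estimate there. Of 63 members tested at both stages, 57 were under 0 at both, against 29.6% of the 13630 genes tested at both. The groups lay apart, Mboat7-/- below, at both stages in 10 members, against 4.89% of all genes, which is 20% of the 50 at E11.5 and 71.4% of the 14 at E12.5. A smaller difference at E12.5 was therefore not shown by the test of the difference.

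Several subunits of complex IV come as isoforms from separate genes, with a form used in most tissues and forms known from heart and skeletal muscle, lung, testis or low oxygen. In these cortices the widely used form predominated in every family. Per kilobase of transcript, Cox4i1 stood at 402.8 CPM at E11.5 against 2.03 for Cox4i2, the form known from lung and low oxygen, and at 419.3 against 1.46 at E12.5. Cox6b1 stood at 235.4 CPM per kilobase against 16.9 for Cox6b2, the testis form, at E11.5, and at 232.0 against 5.24 at E12.5. Cox7a2 and Cox7a2l stood at 109.5 and 129.7 CPM per kilobase at E11.5 and at 151.1 and 181.6 at E12.5. The muscle form Cox7a1 stood at 2.03 at E11.5 and at 0.811 at E12.5. Ndufa4 stood at 180.6 and 184.2 against 2.11 and 3.53 for Ndufa4l2, a gene known to be induced by hypoxia.

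**Figure D4:**
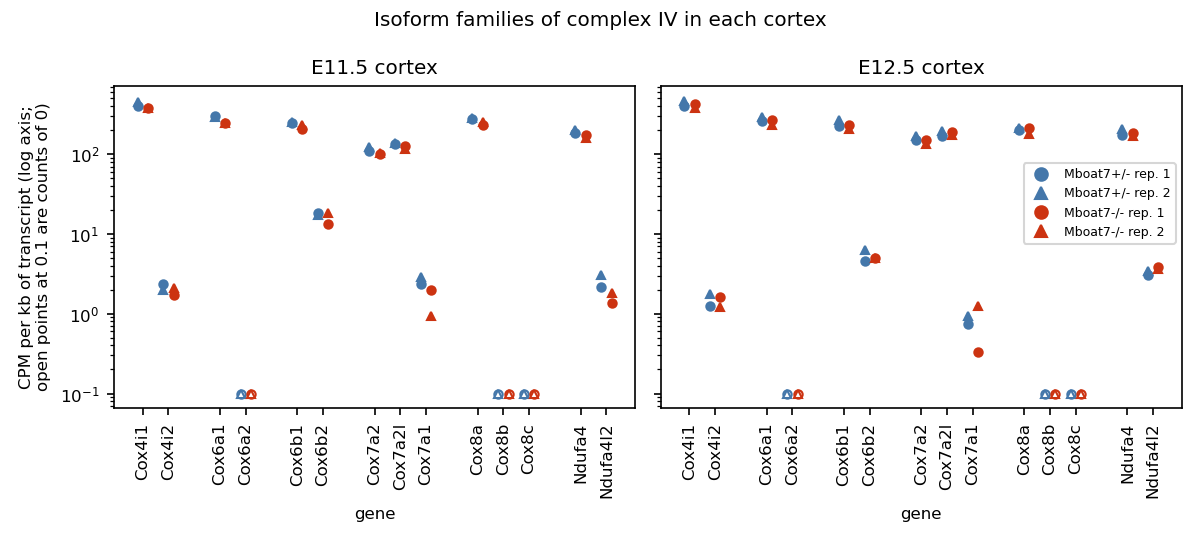
CPM per kilobase of transcript (y axis, log scale) of the complex IV isoform families (x axis) in each cortex, blue for Mboat7+/- and red for Mboat7-/-, circles for replicate 1 and triangles for replicate 2, with open points drawn at 0.1 where the count is 0. Cox4i1, Cox6a1, Cox6b1, Cox7a2, Cox7a2l, Cox8a and Ndufa4 lie at about 100 or more, and Cox6a2, Cox8b and Cox8c had a count of 0 in all 8 cortices.

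The muscle forms Cox6a2 and Cox8b and the testis form Cox8c had 0 counts in all 8 cortices, which allows a level of up to 0.144 CPM in the shallowest library. Cox6a1 and Cox8a, their widely used counterparts, stood at 271.5 and 261.0 CPM per kilobase at E11.5. A list of 6 skeletal and cardiac muscle markers summed to 1.77 to 11.4 CPM per cortex. Among the minor forms no genotype difference passed the test. Ndufa4l2 measured 2.03 and 2.87 CPM in Mboat7+/- and 1.27 and 1.70 in Mboat7-/- cortices at E11.5 (log2 fold change -0.73, SE 0.406), and 2.88 and 3.24 against 3.65 and 3.40 at E12.5 (log2 fold change 0.20). Cox7a1 measured 0.924 and 1.13 CPM against 0.778 and 0.364 at E11.5 (log2 fold change -0.83, SE 0.607). Cox4i2 and Cox6b2 overlapped between genotypes at both stages.

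The rest of the mitochondrial energy system was read from lists of genes with the same fits, and no gene of these lists had an FDR under 0.05 at either stage. For these and the lists that follow, the shares of all genes tested were 51.0% lower at E11.5 and 48.8% at E12.5. At E11.5, 5.81% of all genes were lower at an unadjusted p under 0.05. Of the nuclear genes of ATP synthase, 15 of 15 were lower at E11.5 (median -0.13, 5 with an unadjusted p under 0.05) and 14 of 15 at E12.5 (median -0.12). Of the assembly factors of complexes I to IV, 27 of 40 were lower at E11.5 (median -0.09) and 35 of 46 at E12.5 (median -0.08). At E11.5, 3 of the 40 had an unadjusted p under 0.05, near the share of all genes. Of the enzymes of the citric acid cycle outside complex II, 12 of 17 and 13 of 17 were lower, with medians of -0.06 and -0.09. Electron carriers, a list of 14 genes for cytochrome c and ubiquinone synthesis, had 10 and 9 genes lower, with medians of -0.16 and -0.11.

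The regulators of mitochondrial biogenesis were mixed in direction at E11.5. Of 13, 9 were higher and 4 lower, with a median of 0.11. At an unadjusted p under 0.05 there were 3, of which 2, Gabpb2 and Ppargc1a, were higher (7.94% of all genes) and 1, Esrra, lower (5.81%). Among the factors whose letters were searched for, the log2 fold change was -0.08 for Nrf1, 0.11 for Gabpa, -0.03 for Gabpb1, 0.27 for Gabpb2, 0.13 for Yy1 and -0.35 for Esrra. At E12.5, 7 were higher and 6 lower, with a median of 0.00. The 13 mitochondrially encoded subunits could be read at E12.5, where they summed to 24230 and 27554 CPM in Mboat7+/- and 25699 and 23333 in Mboat7-/- cortices, and 8 of 13 were lower, with a median of -0.07. They were not analysed here at E11.5.

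Genes of translation were mostly lower as well. Their principal transcripts had a median length at E11.5 of 896.5 bases for the cytosolic and 1284 for the mitochondrial ribosomal proteins. Of the mitochondrial ribosomal protein genes 71 of 76 were lower at E11.5 (median -0.14) and 64 of 78 at E12.5 (median -0.10). Of the cytosolic ribosomal protein genes 78 of 80 were lower at E11.5 (median -0.14) and 78 of 84 at E12.5 (median -0.08). At E11.5, 41 were lower at an unadjusted p under 0.05 (5.81% of all genes). The sums of the cytosolic genes were 54412 and 54718 CPM in Mboat7+/- and 50992 and 47592 in Mboat7-/- cortices at E11.5. At E12.5 they were 49899 and 59034 against 55272 and 47270, the same order of the 4 cortices as in the members' sums. No test set the members against these lists.

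Sums of erythroid, mesenchymal and endothelial markers also lay apart between the groups at E11.5, but those of erythroid cells and mesenchyme overlapped at E12.5. Those of microglia and macrophages, given below, overlapped at E11.5 and lay apart at E12.5. No marker had an FDR under 0.05 at either stage. The smallest adjusted p of a marker was 0.171 (edgeR), that of the erythroid Hbb-y at E11.5. Erythroid markers summed to 6958 and 5245 CPM in Mboat7+/- and 3639 and 3880 in Mboat7-/- cortices at E11.5, with 7 of 7 tested lower. At E12.5 they summed to 5342 and 7770 against 5438 and 3834, with 10 of 10 lower. At an unadjusted p under 0.05 (edgeR), 6 were lower at E11.5 (5.81% of all genes) and 7 at E12.5 (1.35%). Without the erythroid genes in the library sizes, the members' medians were -0.18 and -0.10. Markers of mesenchyme and meninges summed to 1695 and 1631 CPM against 1947 and 2086 at E11.5 (9 of 10 higher) and to 714 and 555 against 688 and 747 at E12.5 (7 of 10 higher). At an unadjusted p under 0.05, 7 of them were higher at E11.5 (7.94% of all genes) and 0 at E12.5 (2.76%). Endothelial markers summed to 226 to 247 CPM against 260 to 269 at E11.5 and to 214 to 219 against 225 to 238 at E12.5.

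The neural markers were mostly lower in the fit at E11.5, but the sums of neuronal, radial glial and ventral telencephalon markers overlapped between genotypes. Mboat7-/- replicate 1 had the lowest sum of each neural list at that stage, and no neural marker had an FDR under 0.05. The 5 dorsal forebrain markers summed to 1164 and 1237 CPM in Mboat7+/- and 957 and 1114 in Mboat7-/- cortices, with 5 of 5 lower, and to 1031 and 1071 against 1097 and 1029 at E12.5, with 2 of 5 lower. Neuronal markers summed to 1791 and 2037 CPM against 1185 and 1886 at E11.5, where all 5 were lower, and to 3263 and 3088 against 3181 and 3130 at E12.5. Of 7 radial glial markers 6 were lower at E11.5 and 4 at E12.5. Their sums at E11.5 were 3715 and 3752 CPM in Mboat7+/- and 3249 and 3796 in Mboat7-/- cortices. Intermediate progenitor markers (3 genes) summed to 363 and 387 CPM against 271 and 359 at E11.5, with 3 of 3 lower. At E12.5 they summed to 417 and 421 against 432 and 469, with 3 of 3 higher. Those of the ventral telencephalon (5 genes) summed to 523 and 465 against 406 and 468 at E11.5, with 4 of 5 lower. At E12.5 the ventral markers summed to 607 and 601 against 566 and 577, with 5 of 5 lower. Markers of microglia and macrophages (6 genes) summed to 50.7 and 43.1 CPM against 46.2 and 50.5 at E11.5. At E12.5 they summed to 37.9 and 31.7 against 39.6 and 44.9. There 5 of 6 were higher, 3 of them at an unadjusted p under 0.05 (edgeR, 2.76% of all genes). The part of these other cells, of sex and of transcript length in the genotype difference of the respiratory chain genes was not tested beyond the fits above.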

How the data were processed

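Raw read counts per gene, without normalization, were deposited by the authors as a table for each stage, with a column per cortex. The submitters' processing notes name HISAT2, Subread, mm10 and GRCm39 without saying which was used for which table, and strand settings are not given in the sources used here. E12.5 identifiers were matched to symbols (81.4% of genes with a count, 99.0% of counts). Genotypes were compared within a stage by the quasi-likelihood test of edgeR 4.0.16 in R 4.3.3, with TMM scaling, the filterByExpr filter (minimum count 10), a prior count of 0.125 and Benjamini-Hochberg adjustment over all genes tested, and a fit over all 8 cortices tested the interaction of stage and genotype. Transcript length and GC content came from principal transcripts of GENCODE vM21 (GRCm38), and their trend was removed with splines of 5 degrees of freedom. The fits were unpaired. The labels give same-numbered cortices a common batch number, so the number was used as a block in an alternative, although the deviations of same-numbered cortices correlated across genes by only 0.0994 (E11.5) and -0.246 (E12.5). Cortices of a group differed by more than sampling noise (chi-square per degree of freedom 8.35 to 14.3). The members and lists were chosen with earlier results of these data known. As alternatives, the scaling was changed to RLE or to the upper quartile, the test to DESeq2 1.42.0, and the filter to none or to 10 counts in each cortex, a replicate block was added, the length and GC trend was removed, and each cortex was left out. Names were drawn, per stage, from the 10 members of smallest p and the member of highest CPM in each complex. They also came from complex II, Cyc1, the complex IV isoform families and the X-linked members. Not all of these are named, and further names were picked with their values known. Some items are not reported here. On simulated data the test called 36% of genes changed by 0.5 on the log2 scale at E11.5 and 48% at E12.5, and 19% for the interaction. The changes were placed only in genes of higher count, and no trend with length was simulated. Changes as small as the members' medians were not simulated.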

Additional observations from a re-analysis of the deposited data

Results flagged for a closer look

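In 3 genes both Mboat7-/- cortices lay on one side of the controls at E11.5 and on the other at E12.5. They were Ndufa4l2 (log2 fold change -0.73 and 0.20), Ndufs1 (0.11 and -0.06) and Mboat7 itself (0.17 and -0.17). The difference between stages, E12.5 minus E11.5, was 0.94 for Ndufa4l2 (SE 0.446, adjusted p = 0.858, edgeR interaction test), -0.17 for Ndufs1 (SE 0.111, adjusted p = 0.876) and -0.34 for Mboat7 (SE 0.144, adjusted p = 0.858), so none passed the test of the difference itself. Ndufa4l2 is near the lowest tested level, at 1.27 to 3.65 CPM.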

How the results depend on the processing

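At E11.5 the members' median log2 fold change of -0.18 became -0.049 with the length and GC trend removed and -0.050 with the replicate block as well, and lay between -0.20 and -0.18 under the other alternatives. The 30 members with an unadjusted p under 0.05 became 1 with the trend removed, and 1 with the block as well. From 0, the members with an FDR under 0.05 became 1 with DESeq2, 1 with no filter and 1 with the replicate block, each time Cox6a1. Leaving out each cortex gave medians of -0.22 to -0.15, 6 to 28 members with an unadjusted p under 0.05 and 0 to 8 with an FDR under 0.05. At E12.5 the median of -0.10 lay between -0.11 and -0.036, and between -0.20 and -0.0038 when each cortex was left out. The 1 member with an unadjusted p under 0.05 became 2 with RLE and 0 with DESeq2, no filter, the replicate block, and the block with the trend removed, and 0 to 7 when each cortex was left out. A crossed replicate block, chosen after seeing the data, gave 14 members with an unadjusted p under 0.05 and 0 with an FDR under 0.05. The interaction gave 0 members in all alternatives run, and the replicate block changed no other call.

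With the trend removed, 16 members turned positive at E11.5 and 13 at E12.5. Among the fold changes given in the report, those that turned, alone and with the replicate block, were at E11.5 Cox4i1 (0.030 and 0.032), Sdhd (0.035 and 0.035) and Uqcrc1 (0.070 and 0.069), and at E12.5 Ndufs7 (0.048 and 0.048). When each cortex was left out, the log2 fold change ranged from -0.13 to 0.0055 for Uqcrc2 at E11.5 and from -0.14 to 0.18 for Ndufa1 at E12.5. The other members' fold changes within a stage given in the report kept their sign. Those of Mboat7, of the regulators and between stages were not followed in these alternatives. The cause of the changes of sign was not tested.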
